A study of Mus musculus with 9 samples.

Results

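The colon of wild-type mice given dextran sodium sulfate (DSS) was compared with that of untreated mice kept specific pathogen free (SPF). DSS is a sulfated polysaccharide that damages the colonic epithelium when drunk and is widely used to induce colitis. The comparison takes the 1 wild-type DSS colon library and the 2 SPF colon libraries of a series of 9 single cell libraries, and all barcodes in them with at most 15% mitochondrial UMIs and at least 200 genes, which were 9208 cells of the 31759 in the series that met both limits. A UMI, or unique molecular identifier, tags 1 captured RNA molecule, so that each deposited count stands for 1 molecule. All 3 groups of mice used here were male C57BL/6 animals of 7 to 8 weeks. The SPF groups carried the wild-type genotype and were untreated, and the DSS group carried the same genotype and drank 2.5% DSS (wt/vol) for 7 days before a return to plain water. The protocol allows for other doses, and the day of harvest is not given in the sources used here. A further library from DSS-treated mice labelled Nlrc4 deficient is quoted beside some values. A closing section gives genes of that library that were chosen after their values were seen. No difference is assigned to genotype, because genotype and library cannot be told apart there. The labels name the CD11b+ population of colonic lamina propria cells, and the methods describe a sort on CD45 and CD11b and pooling of 6 mice for the libraries they report, without saying how many mice stand behind these 3.

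In the healthy colon, blood monocytes that express Ly6C enter the lamina propria and mature into resident macrophages, which clear dying cells and make the regulatory cytokine IL-10. In colitis, neutrophils and monocytes are recruited from the blood, and monocyte-derived cells can make inflammatory mediators in place of the resident programme. Interferon-gamma, made by T cells and innate lymphoid cells, acts through its receptor to raise guanylate-binding proteins and immunity-related GTPases in myeloid cells, whereas type I interferons act through a receptor of their own on a partly shared set of genes.

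The libraries held 2615 and 2431 kept cells for SPF replicates 1 and 2 and 4162 for DSS, at medians of 5112, 5141 and 4323 UMIs per cell, and values are given in this order throughout. Over all deposited barcodes the totals were 22191774, 20568541 and 32147562 UMIs. Itgam, which encodes CD11b, had a UMI in 39.8%, 37.3% and 45.6% of all cells, and in 77.9%, 84.0% and 80.1% of the cells called monocytes. B cells and T cells, which the sort should largely remove, were nonetheless present in every library, so the cells were not uniformly of the labelled population. The 7 epithelial markers summed to 2416, 221 and 2145 CPM (UMIs scaled to the same total in every library) over all cells. In the Nlrc4-deficient DSS library they summed to 96.7 CPM. Plasmacytoid dendritic cell markers summed to 161, 13.7 and 149 CPM, and to 7.14 CPM there. Mast cell or basophil markers summed to 178, 35.8 and 200 CPM, and to 25.7 CPM there. In these sums SPF replicate 1 lay near DSS, and SPF replicate 2 lay nearer the Nlrc4-deficient DSS library. The cause was not tested, and the gap between the SPF libraries includes this difference. Every level and share below is therefore given for each library. Barcode sequences shared by 2 libraries numbered 3 between the SPF libraries and 16 and 5 between DSS and SPF replicates 1 and 2. With 1 DSS library no test over samples was possible, so no p-value is given. Intervals are exact 95% binomial or Poisson intervals that cover counting error only, and the gap between the SPF libraries is the available measure of spread.

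Neutrophils and monocytes made up more of the DSS library than of either SPF library. Each cell was named from marker genes when at least 3 markers of a class were detected and that class led all others. Neutrophils, recognised by genes such as Cxcr2 and Csf3r, were 2.03% (1.52 to 2.64) and 2.26% (1.71 to 2.93) of SPF cells, or 53 and 55 cells. In DSS they were 8.96% (8.11 to 9.87), or 373 cells, which was 4.18 times the SPF mean and clear of both SPF intervals. With at least 2 markers per cell the ratio was 2.66. The Nlrc4-deficient DSS library held 4.88% (4.38 to 5.43). Monocytes, recognised by genes such as Ly6c2 and Ccr2, were 11.2% (10.1 to 12.5) and 8.47% (7.40 to 9.65) of SPF cells and 15.5% (14.4 to 16.6) of DSS cells, 1.57 times the SPF mean. The same share was 25.6% (24.5 to 26.6) in the Nlrc4-deficient DSS library. Among the cells named neutrophil, eosinophil, monocyte, resident macrophage or dendritic cell, neutrophils were 5.76%, 7.00% and 23.9%, and monocytes 32.0%, 26.2% and 41.3%. There were 0.180 and 0.267 neutrophils per monocyte in SPF and 0.579 in DSS.

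Dendritic cells and fibroblasts moved the other way. Dendritic cells, which carry antigen to T cells, were 7.65% (6.66 to 8.73) and 16.8% (15.3 to 18.3) of SPF cells and 3.41% (2.88 to 4.01) of DSS cells, so the SPF mean was 3.58 times the DSS share. By cluster the shares were 14.5%, 24.6% and 8.87%, and the SPF mean was 2.202 times the DSS share, while without SPF replicate 2 the marker rule gave 2.24 times. The SPF libraries themselves differed by a wide margin, yet both lay above DSS. Fibroblasts, the collagen-making stromal cells that lack CD45, were 2.68% (2.09 to 3.37) and 2.76% (2.14 to 3.49) in SPF and 0.985% (0.708 to 1.33) in DSS. The Nlrc4-deficient DSS library held 5.55% fibroblasts. Because the cells were sorted and dissociated, these shares describe the recovered cells and not the tissue.

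For the other classes the DSS share lay between the SPF shares or its interval met one of them. Resident macrophages, recognised by C1q genes, were 14.1%, 4.15% and 9.32%. T cells were 7.23%, 10.5% and 9.63%. B cells were 6.04% (5.16 to 7.02), 14.4% (12.99 to 15.8) and 4.97% (4.33 to 5.68), below both SPF libraries but with an interval that met that of replicate 1. Natural killer or innate lymphoid cells were 0.880% (0.558 to 1.32), 1.89% (1.39 to 2.52) and 2.55% (2.09 to 3.07). Epithelial cells were 5.58%, 0.823% and 7.04%, with the DSS library close to SPF replicate 1. Cells with no class were 31.2%, 34.2% and 30.3%, and 120, 81 and 314 named cells led the next class by less than 0.2 of the marker score. When clusters, made without the markers and gene lists, were named instead of cells, neutrophils were 5.16%, 3.33% and 17.1%. These shares join cluster 16, with 3.10%, 3.13% and 8.43%, and cluster 8, with 2.07%, 0.206% and 8.65%. Cluster 8 also held many cells that the marker rule named monocytes or resident macrophages. Under the clusters resident macrophages were 8.22%, 2.18% and 2.14%, at the level of SPF replicate 2. Eosinophils, whose RNA content is low, were 7.72%, 20.4% and 8.60% by cluster and under 1% in all libraries by the marker rule, which seldom found 3 of their markers in a cell.

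**Figure D1:**
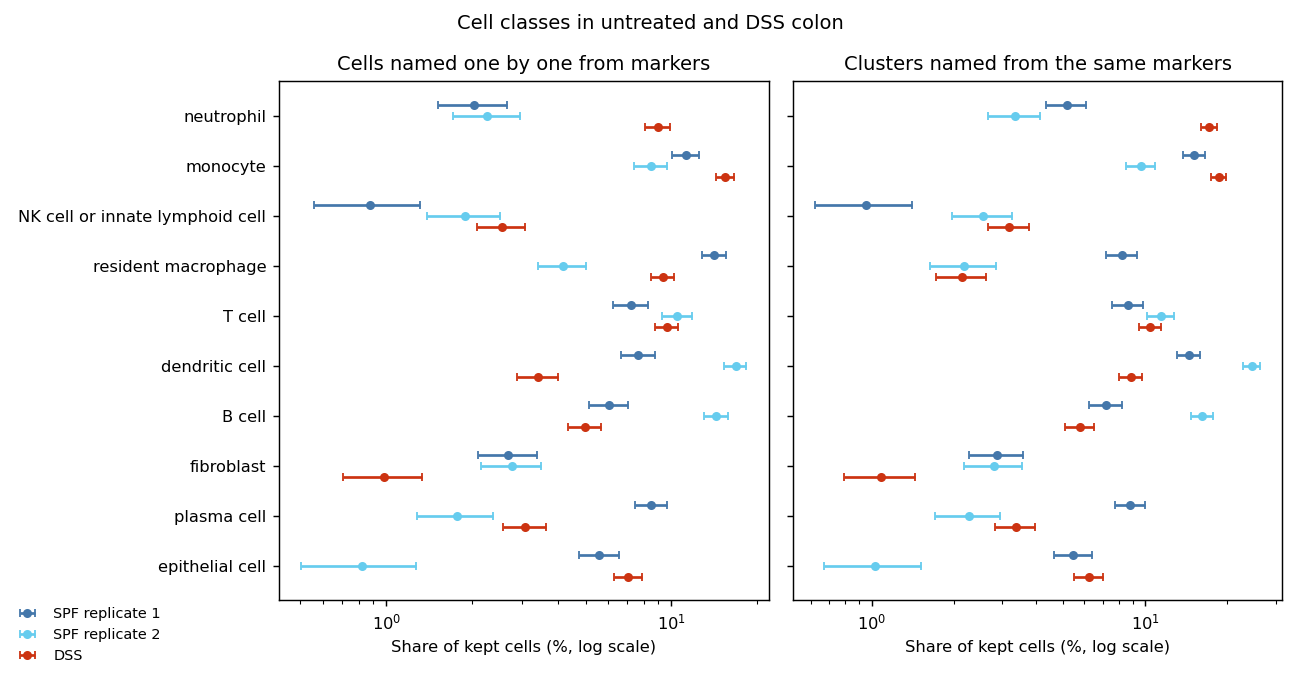
Share of kept cells in each class (%, log axis) for the SPF libraries (blue) and the DSS library (red), with cells named one by one on the left and clusters named on the right, and bars that are exact 95% binomial intervals. The DSS neutrophil share of 8.96% lies to the right of both SPF shares and the dendritic cell and fibroblast shares of 3.41% and 0.985% lie to the left.

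To compare genes within a class, UMIs were summed over the cells of each library and class and scaled to CPM. A gene was called higher or lower when the DSS level was at least 2-fold above, or below, both SPF libraries on the scale log2(CPM + 5), which understates folds of low genes. The 6 classes with at least 50 cells in every library were compared. In monocytes (2004067, 1965811 and 4522961 UMIs), 116 of 10913 genes were higher, or 1.06%, and 32 were lower, or 0.293%. For comparison, 4.72% of the genes differed at least 2-fold between the SPF libraries. Named genes below are the 10 farthest from the nearer SPF library in each direction with at least 50 CPM, without class markers.

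DSS monocytes held more RNA of antimicrobial and acute-phase genes. Saa3, an acute-phase serum amyloid A gene (chr7:46711998-46715700, GRCm38), stood at 109 and 104 CPM in SPF and 1333 CPM (1299.5 to 1367) in DSS, 12.5 times the SPF mean. It was detected in 27 of 294, 19 of 206 and 236 of 644 monocytes, so both a larger part of the cells and a higher sum set DSS apart. In other classes of the DSS library, Saa3 was at 1277 CPM in resident macrophages and 303 CPM in B cells, where a single cell held most of its UMIs. It was at 28.6 CPM in T cells and 11.7 CPM in dendritic cells, far below the monocyte level. S100a8 (chr3:90668978-90670035), which with S100a9 forms the calcium- and zinc-binding calprotectin, was at 32.4 and 2.54 CPM in SPF and 511 CPM (490.3 to 532) in DSS. Cells with an S100a8 UMI numbered 11, 5 and 161 of the same totals. S100a9 was at 47.9 and 2.54 CPM in SPF and 588 CPM (566 to 611) in DSS. Lcn2, encoding the iron-siderophore trap lipocalin 2, had 2 and 0 UMIs in SPF monocytes and stood at 53.5 CPM (46.98 to 60.7) in DSS, in 72 cells.

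Neutrophil RNA moved with these genes. The 6 neutrophil markers summed to 197, 149 and 415 CPM in monocytes, against 11402 CPM in DSS neutrophils and 26.7 CPM in DSS T cells, and all 6 had a UMI in DSS monocytes, against 4 in each SPF library. S100a8 was at 27831 CPM in DSS neutrophils and 3.50 and 4.23 CPM in SPF and 16.1 CPM in DSS T cells, a class that does not make it. Without the cells of cluster 8, in which neutrophil and monocyte markers met, the log2 ratio of S100a8 to the nearer SPF library was 4.50 against 3.78 with them, and that of S100a9 was 4.44 against 3.49. These are ratios and not levels, and a ratio can rise while the levels fall. In DSS, S100a8 was at 5912 CPM in cluster 8 and 186 CPM in the monocyte-like cluster 3, against 511 CPM in all cells named monocytes. Whether the remaining monocytes made calprotectin RNA or took it up from droplets was not tested.

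Inducible nitric oxide synthase and interferon-responsive genes were also higher in DSS monocytes. Nos2, encoding that synthase (chr11:78920787-78960254), had 3 and 0 UMIs in SPF monocytes and stood at 53.1 CPM (46.6 to 60.2) in DSS, where 53 of 644 monocytes had a UMI. It stood at 56.4 CPM in the Nlrc4-deficient DSS library. Iigp1, an interferon-inducible GTPase of vacuole defence, was at 12.5 and 0.509 CPM in SPF and 149 CPM (138 to 160.5) in DSS. Gbp2, a guanylate-binding protein, was at 204 and 93.6 CPM in SPF and 729 CPM (704 to 754) in DSS, 4.90 times the SPF mean. The antiviral membrane protein gene Ifitm1 was at 51.9 and 73.3 CPM and 428 CPM, the NAD-consuming ectoenzyme gene Cd38 at 27.9 and 30.01 CPM and 149 CPM, and the IgG receptor gene Fcgr4 at 93.8 and 30.01 CPM and 350.0 CPM. In each of these genes both SPF libraries lay below the lower bound of the DSS interval.

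Of the 6 alternative activation genes tested in monocytes 2 were lower, Mrc1 and Retnla, against 0.293% of all genes, while the list's median log2 ratio was 0.26. Mrc1, encoding the mannose receptor CD206, was at 159.7 and 85.5 CPM in SPF and 30.3 CPM (25.4 to 35.8) in DSS, so the SPF mean was 4.05 times the DSS level. Clec10a, a galactose-type lectin of macrophages and dendritic cells, was at 67.4 and 81.4 CPM and 9.73 CPM. Lpl, the lipoprotein lipase gene, was at 142 and 125 CPM and 25.4 CPM. The secreted Wnt ligand gene Wnt11 was at 47.9 and 70.7 CPM and 6.41 CPM. Pdlim1, Nav1 and Ptprs were lower too, at 16.6, 20.1 and 15.03 CPM in DSS against SPF levels between 48.4 and 86.0 CPM. The 7 dendritic cell markers summed to 121, 137 and 38.7 CPM in the cells named monocytes, so dendritic cell RNA was lower there as well. Clec10a was among the leading genes of the dendritic cell cluster 1, and Wnt11 was also lower in DSS dendritic cells. How far the lower genes reflect a change within monocytes was not tested. Retnla, encoding the resistin-like protein RELM-alpha, was at 339.8 and 213 CPM and 1.55 CPM, but its UMIs came from 7, 6 and 2 cells, and 1 cell of SPF replicate 2 held 87.8% of them. Lyz1, which is also made by Paneth cells, rested on few cells as well, with 70.4% of its UMIs in 1 cell of SPF replicate 2. All 20 named monocyte genes kept their call when clusters were used in place of single cells.

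Of the gene lists, the interferon-gamma response had the most members past the fold in monocytes. Of its 12 members, 9 were higher and none lower, against 1.06% of all genes, with a median log2 ratio to the SPF mean of 1.71 against 0.05 for all genes. Gbp5, a further guanylate-binding protein, was at 43.9 and 27.5 CPM and 134 CPM. Irf1, the class II transactivator gene Ciita and the checkpoint ligand gene Cd274 did not pass the fold. The chemokine genes Cxcl9 (222 and 9.67 CPM in SPF, 724 CPM in DSS) and Cxcl10 (525 and 223 and 1075 CPM), whose products draw T cells through CXCR3, were higher. Ccl22 was the further member of 3 higher among 15 monocyte- and lymphocyte-attracting chemokines, against 1.06% of all genes.

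Of the 11 inflammatory cytokine genes 2 were higher in monocytes, Nos2 and Il27, against 1.06% of all genes, and the list had a median log2 ratio of -0.03. Il1b was at 2851 and 4671 CPM in SPF monocytes and 3819.8 CPM in DSS, between the SPF libraries, and Tnf was at 428 and 764 CPM and 530.0 CPM. Il6 was at 105 and 372 CPM and 88.7 CPM, within 2-fold of the nearer SPF library. The IL-1 decoy receptor gene Il1r2 (197 and 158 CPM, 484 CPM) and the IL-18 binding protein gene Il18bp (10.98 and 2.54 CPM, 48.2 CPM) were higher, 2 of 6 in their list against the same 1.06%. Of the 17 matrix genes 3 were higher, against 1.06% of all genes. They were the metalloproteinase genes Mmp14 (204 and 119 CPM, 465 CPM) and Mmp8 (30.9 and 34.6 CPM, 122 CPM) and the inhibitor gene Timp1. The formyl peptide receptor gene Fpr2, which senses bacterial and mitochondrial peptides, was at 80.3 and 78.3 CPM and 294 CPM. Il10 was lower at 401 and 787 CPM and 190.1 CPM, and with Cd36 and Lpl made 3 of 17 tissue macrophage genes lower and none higher, against 0.293% of all genes. MHC class II genes had 0 of 8 past the fold in either direction.

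**Figure D2:**
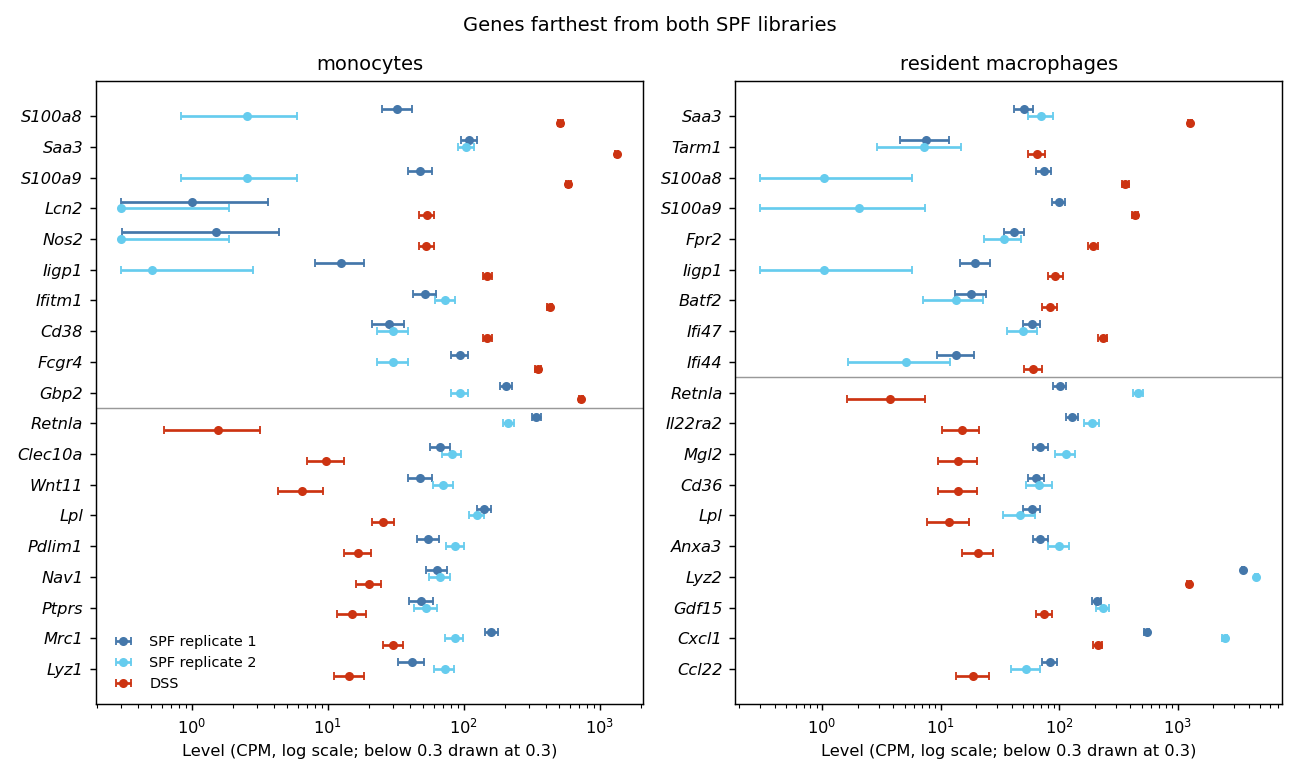
Levels (CPM, log axis, values below 0.3 drawn at 0.3) of the genes farthest from both SPF libraries in cells named monocytes and resident macrophages, with exact 95% Poisson bars that cover counting error only. Genes above the grey line were higher in DSS (red) and those below it lower than both SPF libraries (blue), from Saa3 at 1277 CPM in DSS resident macrophages to Retnla at 3.77 CPM.

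Cells that met the resident macrophage rule shared part of this pattern (2497642, 970462 and 2123546 UMIs). Here 111 of 10663 genes were higher, or 1.04%, and 48 lower, or 0.45%, while the SPF libraries differed at least 2-fold in 5.46%. Saa3 was at 50.4 and 70.1 CPM in SPF and 1277 CPM (1229 to 1326) in DSS, 21.2 times the SPF mean, and stood at 1815 CPM in the Nlrc4-deficient DSS library. Fpr2 was at 42.04 and 34.00 CPM and 193 CPM, and the interferon-inducible GTPase gene Ifi47 at 59.3 and 49.5 CPM and 233 CPM. Tarm1, an activating receptor of myeloid cells, was at 7.61 and 7.21 CPM and 64.5 CPM. The transcription factor gene Batf2 was at 18.02 and 13.4 CPM and 83.4 CPM. S100a8 was at 74.5 and 1.03 CPM and 362 CPM, so that the SPF libraries lay farther apart on the log scale than DSS and SPF replicate 1, and the neutrophil markers summed to 253, 49.5 and 372 CPM.

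Of 19 tissue macrophage genes 5 were lower and none higher in these cells, and 2 of 19 were lower when cluster 0 took the place of the class. Selenop, a secreted selenoprotein of tissue macrophages, was at 932 and 979 CPM and 432 CPM. Il10 was at 559 and 2219 CPM and 238 CPM, and the scavenger receptor gene Cd36 at 64.1 and 68.01 CPM and 14.1 CPM. With Igf1 and Lpl these made the 5 lower genes, against 0.45% of all genes, at a median log2 ratio of -0.88 where all genes had 0.10. Mrc1 was at 261 and 276 CPM and 119 CPM. The galactose lectin gene Mgl2 was at 69.7 and 113 CPM and 14.1 CPM. Lyz2, the macrophage lysozyme gene, was at 3537 and 4588 CPM and 1236 CPM (1189 to 1284), and stood at 4263 CPM in the Nlrc4-deficient DSS library. The neutrophil-attracting chemokine genes Cxcl1 (548 and 2486 CPM, 211 CPM) and Cxcl3 were lower, 2 of 3 in their list against 0.45% of all genes. Cxcl1 stood at 2232 CPM in the Nlrc4-deficient DSS library. Gdf15 and Ccl22 were lower, at 74.9 and 18.8 CPM in DSS, and Retnla and Il22ra2, a soluble receptor for IL-22, rested on 3 and 4 DSS cells. MHC class II genes had 0 of 8 past the fold, with a median log2 ratio of -0.59.

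The cells behind the resident macrophage class were not distributed alike. Cluster 0, led by C1q genes and Apoe, held 53.7%, 50.5% and 20.6% of them. In DSS a further 27.8% fell in the monocyte-like cluster 3, which held 16.8% and 12.9% in SPF, and 17.0% in the neutrophil-like cluster 8. Cluster 12, unnamed and with a median of 1561.5 UMIs per cell, held another 19.8% in DSS and 11.7% in SPF replicate 1. Cluster 11, led by haemoglobin genes, held 6.50%, 30.7% and 9.54%. When the class was replaced by the cells of cluster 0, 9 of its 20 named genes lost their call, among them Fpr2, Cd36, Lpl and Lyz2, while Saa3 and Mgl2 kept theirs. The tissue macrophage list then had a median log2 ratio of -0.12 in place of -0.88, the antimicrobial list 0.76 in place of 2.13 and the interferon-gamma list 0.73 in place of 1.50. How much of each difference came from a change in the mix of cells and how much from a change within cells was not tested beyond these values.

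**Figure D3:**
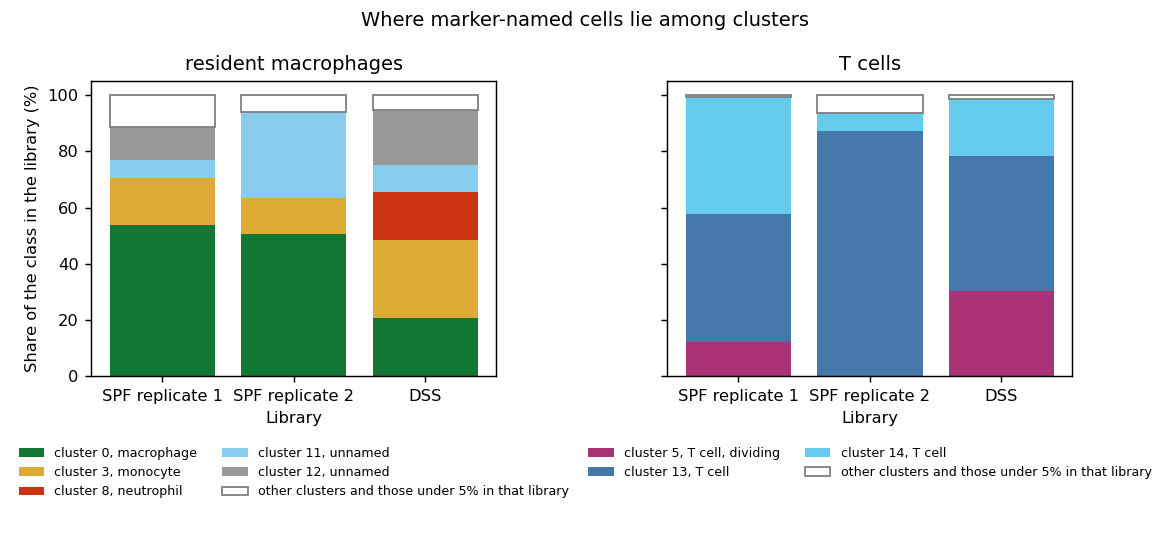
Share (%) of the cells named resident macrophages (left) and T cells (right) that fell in each cluster of the 3 libraries, with clusters below 5% in a library drawn in white. Cluster 0 held 53.7% and 50.5% of SPF resident macrophages and 20.6% in DSS, and the dividing cluster 5 held 12.2% of T cells in SPF replicate 1 and 30.4% in DSS.

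Genes of the interferon-gamma list were higher in the other mononuclear phagocytes too. In resident macrophages 8 of its 12 members were higher, against 1.04% of all genes (median log2 ratio 1.50), which became 3 of 12 with cluster 0 in place of the class, and in dendritic cells 9 of 12, against 0.737% (median 1.73), with none lower in either. Because all classes came from the same libraries, these counts are not independent of each other. In B cells 2 of 10 were higher, against 0.619% of all genes, with a median of 0.67. In neutrophils 1 of 12 was higher, against 10.4%, with a median of 0.92. In T cells 0 of 12 passed the fold in either direction, with a median of 0.21. Ifng itself was at 184 and 251 CPM in SPF T cells and 307 CPM in DSS, above both but within 2-fold.

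The promoters of the interferon-gamma list were searched on both strands for the letters of known interferon motifs. These were the gamma-activated site (GAS, TTCNNNGAA) and the interferon-stimulated response element (ISRE, GAAA followed by any 2 bases and GAAA). The promoters were RefSeq promoters of GRCm38.p6 running from 250 bases before to 50 after the start. Of the 12 members 8 had a promoter in the tables, and 7 of these held a match, 4 for GAS and 6 for ISRE. Over all 32851 promoters, GAS letters occurred in 8.30% and ISRE letters in 3.44%. These shares are per promoter and per motif, while the list was counted by gene over 9 promoters, so they are not a like measure. The list was made up of interferon-gamma response genes, so matches were likely whatever DSS did and say nothing about DSS. A match is a description of the sequence and no evidence of binding. The promoters of Gbp2, which holds an ISRE match on the reverse strand, and of Igtp, an immunity-related GTPase with both matches side by side, are shown because both genes were higher in DSS monocytes and dendritic cells, with the matches in capitals.
Gbp2 (chr3:142620413-142620712, plus strand): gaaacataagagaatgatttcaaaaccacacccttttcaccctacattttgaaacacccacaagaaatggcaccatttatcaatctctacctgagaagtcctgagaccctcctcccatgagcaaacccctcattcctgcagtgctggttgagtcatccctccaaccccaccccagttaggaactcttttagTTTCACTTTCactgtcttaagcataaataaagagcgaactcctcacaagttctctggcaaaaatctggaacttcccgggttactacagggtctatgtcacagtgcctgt
Igtp (chr11:58199306-58199605, plus strand): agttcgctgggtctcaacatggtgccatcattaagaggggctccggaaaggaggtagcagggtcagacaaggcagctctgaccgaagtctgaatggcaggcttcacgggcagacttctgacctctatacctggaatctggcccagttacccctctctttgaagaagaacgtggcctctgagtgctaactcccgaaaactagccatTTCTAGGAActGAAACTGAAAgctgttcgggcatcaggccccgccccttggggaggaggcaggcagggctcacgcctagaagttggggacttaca

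**Figure D4:**
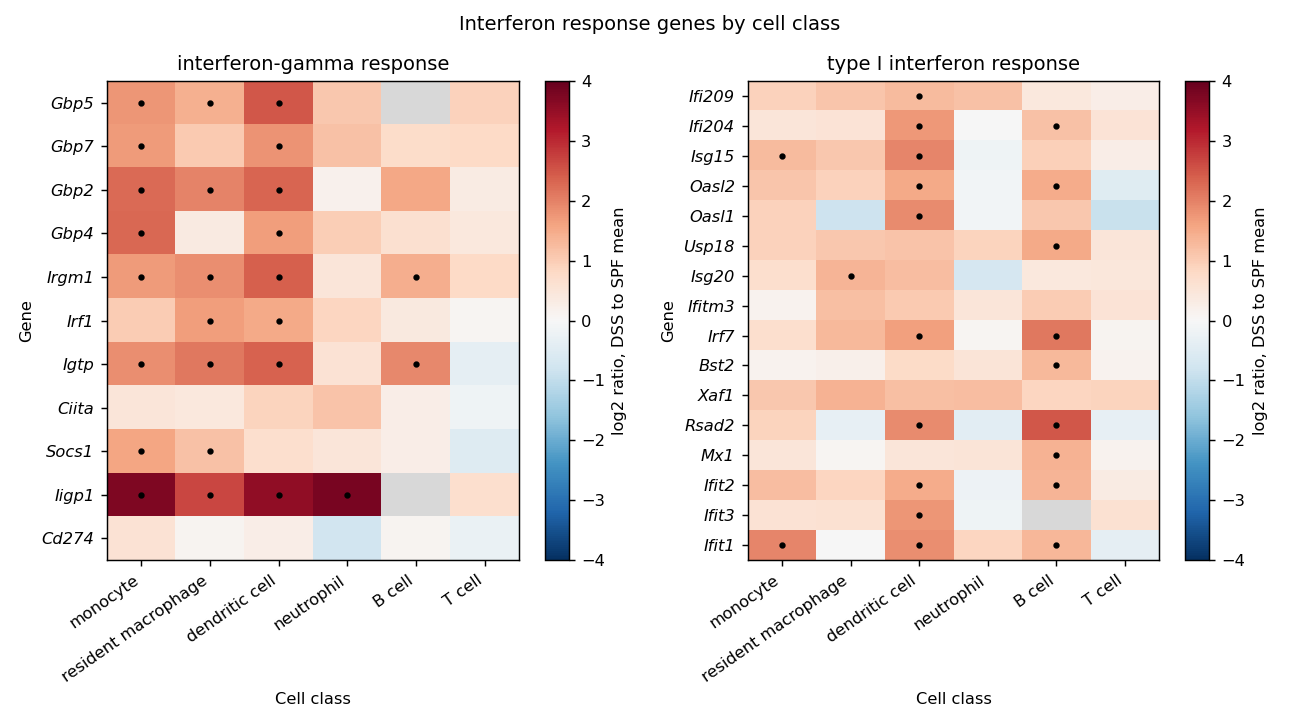
Log2 ratio of the DSS level to the SPF mean (colour, log2(CPM + 5) scale) for 11 of the 12 interferon-gamma and the 16 type I interferon genes in 6 classes, with dots where DSS was at least 2-fold from both SPF libraries in the same direction and grey where counts were too low. Dots for the interferon-gamma genes lie mainly in monocytes (8), resident macrophages (7) and dendritic cells (8), and those for the type I genes mainly in dendritic cells (10) and B cells (9).

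In dendritic cells (2561944, 7778265 and 2047267 UMIs), 84 of 11392 genes were higher, or 0.737%, and 31 lower, or 0.272%, with 2.35% apart between the SPF libraries. Of the 10 leading higher genes 5 were members of the interferon-gamma list (Iigp1, Igtp, Gbp5, Irgm1 and Gbp2). Cxcl10 was at 106 and 82.8 CPM in SPF and 569 CPM (536 to 602) in DSS, 6.02 times the SPF mean, and Cxcl9 at 240.4 and 104 CPM and 898 CPM (858 to 940.3). Igtp, whose promoter is printed above, was at 8.59 and 5.66 CPM and 57.6 CPM. Irgm1, a related GTPase of autophagy and vacuole control, was at 37.5 and 22.9 CPM and 179.8 CPM, and Gbp2 was at 54.6 and 35.4 CPM and 246 CPM. Ly6a, which encodes the surface protein Sca-1, was at 165 and 49.6 CPM and 663 CPM. Of 16 type I interferon genes 10 were higher, against 0.737% of all genes (median log2 ratio 1.50 against -0.03 for all genes). They include Isg15 (119 and 51.8 CPM, 349 CPM) and Irf7 (69.1 and 23.3 CPM, 153 CPM). In monocytes 2 of the 16 type I interferon genes were higher, Isg15 and Ifit1, against 1.06% of all genes.

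Lower in DSS dendritic cells were Mgl2 (141 and 177 CPM, 19.05 CPM (13.5 to 26.04)), a lectin of type 2 conventional dendritic cells, and Wnt11 (97.6 and 207 CPM, 32.2 CPM). The transferrin gene Trf was at 90.6 and 108 CPM and 34.2 CPM, and the endotoxin co-receptor gene Cd14 at 69.9 and 106 CPM and 32.2 CPM, just past the fold. Cluster 6, led by the type 1 dendritic cell genes Xcr1 and Clec9a, held 26.0% and 37.3% of SPF dendritic cells and 32.4% in DSS, and cluster 1 the bulk of the rest. The split between these clusters in DSS thus lay within that of SPF. Cluster 1 was led by Cd209a and Mgl2 as well as Ccr7 and Fscn1, and a change in the mix of cells within it was not tested. Fscn1, an actin bundler of mature dendritic cells, was at 6.64 and 5.14 CPM and 71.8 CPM, yet 6, 19 and 8 cells had a UMI, so the difference rested on a few cells of high level. Ccr7, the lymph node homing receptor gene of mature dendritic cells, was at 432 and 1034 CPM and 438 CPM, within the SPF range. Antigen presentation genes of MHC class II had 0 of 8 past the fold.

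Neutrophils gave the least stable gene comparison, since the SPF classes held 53 and 55 cells (145929 and 150111 UMIs, against 1430562 in DSS). The SPF libraries differed at least 2-fold in 41.2% of 7782 genes, and 807 genes were higher in DSS, or 10.4%, and 75 lower, or 0.964%. Of the 10 leading higher genes 8 had 0 to 3 UMIs in each SPF library, so no fold is given for them. They include Iigp1 (0 UMIs in both SPF libraries, 64.3 CPM (51.8 to 78.9) in DSS), the scavenger receptor gene Msr1 (0 UMIs in both, 59.4 CPM in DSS) and Ngp, a granule protein of immature neutrophils (3 and 0 UMIs, 158 CPM). Ngp was detected in 47 DSS cells, and 25.2% of its UMIs lay in 1 of them. In the cells named neutrophils, the resident macrophage markers summed to 130, 33.3 and 403 CPM and the monocyte markers to 541, 293 and 775 CPM. Whether RNA such as that of Msr1 came from neutrophils or from other cells was not tested. In DSS, 20.6% of the cells named neutrophils fell in cluster 8, and without that cluster 343 genes were higher.

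Apart from Cdc42ep3, the neutrophil genes given next had levels of over 100 CPM in every library. The alarmin gene S100a8 was at 20346 and 9959 CPM in SPF neutrophils and 27831 CPM in DSS, and Il1b was at 7942 and 6742 CPM and 8141 CPM, both within 2-fold of the nearer library. Wfdc17, a protease-inhibitor-like protein, was higher at 863 and 559.6 CPM and 2788 CPM (2702 to 2876). Mmp8, the neutrophil collagenase gene, was higher at 260.4 and 139.9 CPM and 644 CPM (603 to 687). Of the lower genes, Thbs1, encoding the matrix glycoprotein thrombospondin 1 (chr2:118111876-118127133), was at 1919 and 3957 CPM and 619 CPM (579 to 661), so the SPF mean was 4.74 times the DSS level. Nlrp3, the inflammasome sensor gene, was lower at 3679.9 and 4017 CPM and 1815 CPM, and the chemokine gene Ccl3 was lower at 4269 and 7075 CPM and 2057 CPM. Vps37b, a subunit of the ESCRT-I sorting complex, was at 1843 and 2005 CPM and 683 CPM, and Cdc42ep3 was at 315 and 293 CPM and 89.5 CPM. Cxcr4, the bone marrow retention and ageing-associated receptor, was at 1343 and 939 CPM and 652 CPM and did not pass the fold. By list, 5 of 13 monocyte- and lymphocyte-attracting chemokines were higher, against 10.4% of all genes, and 1 was lower, against 0.964%.

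Cluster 8 was made up largely of DSS cells, 360 of 419, with 54 and 5 cells from SPF. It was formed without the marker and list genes. In its DSS cells S100a8 was at 5912 CPM, between 35669 CPM in the neutrophil-like cluster 16 and 186 CPM in the monocyte-like cluster 3. The monocyte marker Ly6c2 was at 841 CPM there, against 1825 CPM in cluster 3 and 99.1 CPM in cluster 16, and the macrophage marker C1qa at 700 CPM, against 421 and 65.0 CPM. Its median of 4712 UMIs per DSS cell lay below the 6944 of cluster 3 and above the 2464 of cluster 16. The marker rule spread these cells over neutrophils, monocytes and resident macrophages. Scrublet called 0, 6 and 4 doublets in the 3 libraries, too few to have worked, so whether cluster 8 held doublets, free neutrophil RNA or cells with both sets of markers was not tested.

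In B cells (734143, 1872657 and 970088 UMIs), 60 of 9698 genes were higher, or 0.619%, and 50 lower, or 0.516%, with 6.67% apart between the SPF libraries. Type I interferon genes accounted for 9 of the higher genes, out of 15 tested (median log2 ratio 1.29 against -0.12). Irf7, the transcription factor that amplifies interferon production, was at 17.7 and 19.2 CPM and 96.9 CPM (78.3 to 119). Bst2, encoding the virus tether tetherin, was at 28.6 and 39.5 CPM and 90.7 CPM, and Ifi27l2a at 328 and 200.2 CPM and 1027 CPM. The Nlrc4-deficient DSS library stood at 10.9 CPM for Irf7 and 274 CPM for Ifi27l2a. Several leading genes rested on 1 cell, which held 91.8% of the DSS UMIs of Tmem80, 62.2% of those of Saa3 and 53.1% of those of Rsad2. In the cells named B cells, monocyte markers summed to 57.2, 34.7 and 201 CPM. Mast cell or basophil markers summed to 1.36, 0 and 73.2 CPM in them. Whether RNA of other cells had a part in the higher interferon genes was not tested. Lower were Ccr6 (76.3 and 79.03 CPM, 29.9 CPM), the receptor that guides B cells to CCL20, the transcriptional inhibitor gene Id2 (105 and 110.0 CPM, 40.2 CPM) and Marcks (178 and 232 CPM, 79.4 CPM).

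In T cells (1142472, 1655219 and 3601724 UMIs), 58 of 10824 genes were higher, or 0.536%, and 42 lower, or 0.388%, while 9.88% differed at least 2-fold between the SPF libraries. Ly6a was at 112 and 134 CPM in SPF and 515 CPM (492 to 539) in DSS, 4.18 times the SPF mean. S100a4 and S100a6, calcium-binding proteins of activated and memory T cells, were at 264 and 367 CPM and 1170.0 CPM and at 1042 and 658 CPM and 2912 CPM. The AP-1 family transcription factor gene Batf was at 41.1 and 45.9 CPM and 148 CPM. All of these lay above both SPF libraries, whose levels differed little in comparison.

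A dividing T cell cluster held more of the T cells in DSS. This cluster 5, whose leading genes include Gzmb and the replication gene Pclaf, held 12.2% of T cells in SPF replicate 1, under 5% in replicate 2 and 30.4% in DSS. The 12 cell cycle genes all lay above the SPF mean (median log2 ratio 1.02 against -0.01), yet 0 of 12 passed the fold because SPF replicate 1 also stood high. Mki67, the proliferation marker, was at 160.2 and 43.5 CPM and 266 CPM, and with all cells thinned to 1000 UMIs it was detected in 7.41%, 1.57% and 10.7% of T cells. Unthinned, the shares were 20.1%, 8.24% and 32.4%. The histone genes Hist1h2ab and Hist1h2ae, and Cdca8 and Hells, which act in mitosis and chromatin remodelling, were among the 10 leading higher genes. Among the lower genes, the retention-associated signalling regulator gene Rgs1 was at 1882 and 1805 CPM and 728 CPM (700.4 to 756). The heat shock genes Hspa1a (94.5 and 265 CPM, 19.7 CPM) and Hspa1b (137 and 332 CPM, 29.99 CPM) were lower, and as near-identical copies their reads may have been split arbitrarily. They were the 2 of 14 dissociation and stress genes past the fold, against 0.388% of all genes lower. That list had a median log2 ratio of -0.68, with Fos at 551 and 431 CPM and 342 CPM. In the other classes the median of that list was 0.21 in monocytes, 0.29 in resident macrophages and 0.098 in neutrophils. It was 0.12 in B cells and -0.11 in dendritic cells. Whether tissue handling had a part in the T cell differences was not tested.

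Most genes of the list of T cell and innate lymphoid cytokines and regulators stayed within 2-fold of the nearer SPF library in T cells. Il17a was at 50.8 and 147 CPM and 31.1 CPM, and Il10 at 129 and 371 CPM and 188 CPM. Il2ra, the IL-2 receptor gene of activated and regulatory T cells, was at 47.3 and 142 CPM and 229.6 CPM, and Ctla4 at 937 and 1105 CPM and 1526 CPM, both above the SPF libraries but within 2-fold of the nearer. Of 17 genes tested in that list none was higher and 1 was lower, against 0.388% of all genes, namely Csf2, with 43, 10 and 1 UMIs, and 86.0% of those in SPF replicate 1 lay in 1 cell. Ccr7 was at 179 and 413 CPM and 82.7 CPM and was lower.

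**Figure D5:**
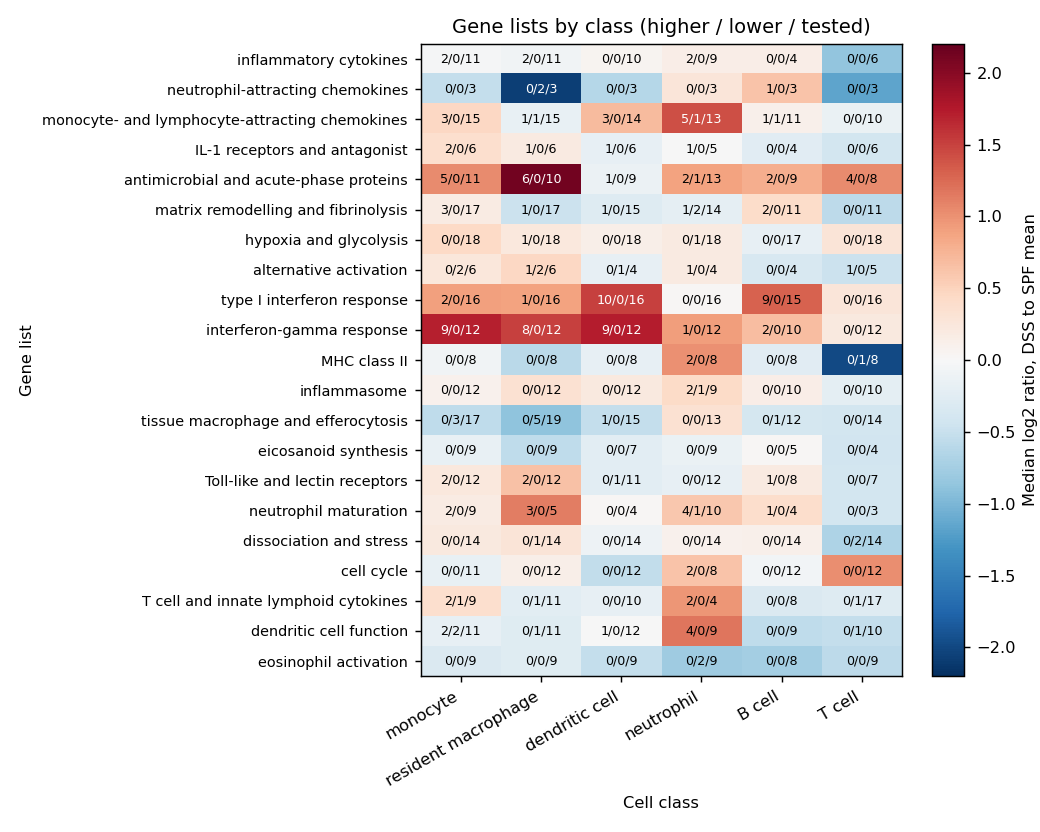
Median log2 ratio of DSS to the SPF mean (colour) for 21 gene lists in 6 cell classes, with the numbers of genes higher than both SPF libraries, lower than both and tested printed in each field. The interferon-gamma row is positive in monocytes, resident macrophages and dendritic cells (1.71, 1.50 and 1.73). It is 0.92 in neutrophils, 0.67 in B cells and 0.21 in T cells.

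Read across the lists, the antimicrobial and acute-phase proteins had 5 of 11 genes higher in monocytes, against 1.06% of all genes, and 6 of 10 in resident macrophages, against 1.04%, which became 3 of 8 with cluster 0 in place of the class. In lymphocytes, which are not known as a source of most of them, 4 of 8 were higher in T cells, against 0.536%, and 2 of 9 in B cells, against 0.619%. Of the 18 hypoxia and glycolysis genes none was higher in monocytes, against 1.06% of all genes, and 1 in resident macrophages, against 1.04%. Inflammasome genes had 0 of 12 past the fold in monocytes, resident macrophages and dendritic cells, 0 of 10 in B cells and in T cells, and in neutrophils 2 of 9 higher, against 10.4%, and 1 lower, against 0.964%. Eicosanoid synthesis genes had 0 past the fold in all 6 classes, with Ptgs2, the inducible cyclooxygenase gene, at 1623 and 2703 CPM in SPF monocytes and 2156 CPM in DSS. Of the alternative activation genes, Mrc1 and Retnla were lower in monocytes, while Chil3 was at 401 and 604 CPM and 1121 CPM and did not pass the fold. Arg1 was at 0.400 and 0 CPM and 11.8 CPM in resident macrophages, from 1 and 0 UMIs in SPF.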

How the data were processed

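Cells labelled CD11b+ from mouse colonic lamina propria were profiled with the 10x Genomics 3' kit (V3). The deposited values are raw UMI counts per gene and barcode, made by the authors with Cell Ranger and STAR 2.5.1b on mm10 per the submitters' processing notes. Barcodes with at most 15% mitochondrial UMIs, the cut-off the study states, and at least 200 genes were kept, which left 20051730 to 28152684 UMIs per library. Each cell took the class with the highest scaled score (scaled at percentile 75) among 15 classes with 91 markers, when at least 3 markers of it were detected and it led the next class by 0.1. Clusters were made with scanpy 1.11.5 (2000 variable genes without markers and list genes, 30 principal components, Leiden resolution 0.8) and named at a mean marker log2 fold of at least 1.2, a lead of 0.3 and 3 markers over 2-fold. Scrublet called 0, 6 and 4 doublets in the SPF and DSS libraries, under 0.5% of cells, so it had not worked, and doublets were kept.

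UMIs were summed per library and class, scaled to the class total (CPM) and compared as log2(CPM + 5) over genes with at least 10 UMIs in the 3 libraries, in classes with at least 50 cells in each. A gene was past the fold when DSS lay at least 2-fold above or below both SPF libraries. Named were, per class, up to 10 such genes in each direction at or above 50 CPM with the largest ratio to the nearer SPF library, and from every list its 4 leading genes by that ratio, in whichever class it peaked. Markers, mitochondrial, ribosomal protein, haemoglobin, immunoglobulin and antigen receptor genes and those with Gm or Rik names were left out. A few genes that met these rules are not reported here, though counts and medians include them. Other genes in the text were chosen after their values were seen. The members and the 21 gene lists (250 of 252 genes found) were chosen with earlier results of these data known. With 1 DSS library no test was made, and 95% intervals (exact Poisson or binomial) cover counting error only. The computation of ratios was tested on simulated data. Gene positions are those of GENCODE for GRCm38 and promoters those of RefSeq. Python 3.11.15, numpy 2.4.6, pandas 2.3.3, scipy 1.17.1 and matplotlib 3.10.9 were used.

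Alternatives were at most 10% mitochondrial UMIs with at least 500 genes, Scrublet calls removed, clusters in place of cell classes, each SPF library left out, cells thinned to 1000 UMIs, pseudocounts of 1 and 20 CPM, TMM scaling (edgeR 4.0.16 in R 4.3.3) and no filter on low counts. At least 2 markers, shares of myeloid cells and omission of cluster 8 were added after seeing the data.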

Additional observations from a re-analysis of the deposited data

Results flagged for a closer look

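In 6 genes the DSS library lay at least 2-fold past both SPF libraries in opposite directions in different classes. Values are log2 ratios to the nearer SPF library with a pseudocount of 5 CPM. The difference between classes was not tested in any of them. Ccl22, a chemokine for CCR4, was at 1.06 in monocytes and -1.27 in resident macrophages. Fgl2 was at 1.08 in monocytes and -1.27 in T cells. Ccr7 was at 2.17 in neutrophils and -1.07 in T cells. Cxcl3 was at -1.11 in resident macrophages and 1.55 in B cells. Il22ra2 was at 2.04 in monocytes, from 5 DSS cells of which 1 held 95.0% of the UMIs, and at -2.73 in resident macrophages. Retnla was at -5.05 in monocytes, -3.59 in resident macrophages and 1.60 in T cells, where 1 DSS cell held all of the UMIs.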

How the results depend on the processing

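No paired analysis was possible because the labels number no replicate of the single DSS library, whose number 1 is only a name, and the groups share fewer than 2 numbers. With 1 DSS library, no spread between DSS mice was measured, and what differs between that library and both SPF libraries cannot be assigned to DSS apart from the library itself. With 1 SPF library left out, the resident macrophage share ratio ran from 0.661 to 2.24 and the T cell share ratio from 0.919 to 1.33, so neither has a direction. Leaving out an SPF library also drops the demand to pass both. The rule of at least 2 markers, the myeloid denominator and the omission of cluster 8 were chosen after seeing the data. For the other shifts the cause was not tested.

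The neutrophil share, 4.18 of the SPF mean, was 5.02 with cells thinned, 2.66 with at least 2 markers and 3.75 among myeloid cells. The fibroblast share, 0.363 of the SPF mean, was 0.319 under the stricter cell filter, 0.382 with clusters, 0.371 with cells thinned and 0.351 with at least 2 markers. The resident macrophage share, 1.02 of the SPF mean, was 0.411 with clusters.

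In neutrophils, the 807 genes higher in DSS became 220 with clusters, 138 with a pseudocount of 20 CPM, 521 with at least 2 markers, 343 without cluster 8 and 1539 to 2625 with 1 SPF library left out. In neutrophils, the 75 genes lower in DSS became 30 with clusters, 128 with a pseudocount of 1 CPM, 23 with a pseudocount of 20 CPM, 123 with no low-count filter and 363 to 505 with 1 SPF library left out. In monocytes, the 116 genes higher in DSS became 270 with a pseudocount of 1 CPM, 53 with a pseudocount of 20 CPM and 154 to 503 with 1 SPF library left out. In monocytes, the 32 genes lower in DSS became 112 with a pseudocount of 1 CPM, 9 with a pseudocount of 20 CPM and 66 to 283 with 1 SPF library left out. In resident macrophages, the 111 genes higher in DSS became 263 with a pseudocount of 1 CPM, 43 with a pseudocount of 20 CPM and 150 to 750 with 1 SPF library left out. In resident macrophages, the 48 genes lower in DSS became 76 with clusters, 180 with a pseudocount of 1 CPM, 14 with a pseudocount of 20 CPM and 83 to 406 with 1 SPF library left out. In dendritic cells, the 84 genes higher in DSS became 182 with a pseudocount of 1 CPM, 36 with a pseudocount of 20 CPM and 125 to 231 with 1 SPF library left out. In dendritic cells, the 31 genes lower in DSS became 15 with clusters, 270 with a pseudocount of 1 CPM, 6 with a pseudocount of 20 CPM and 85 to 259 with 1 SPF library left out. In B cells, the 60 genes higher in DSS became 125 with a pseudocount of 1 CPM, 11 with a pseudocount of 20 CPM and 171 to 249 with 1 SPF library left out. In B cells, the 50 genes lower in DSS became 283 with a pseudocount of 1 CPM, 3 with a pseudocount of 20 CPM and 232 to 328 with 1 SPF library left out. In T cells, the 58 genes higher in DSS became 190 with a pseudocount of 1 CPM, 11 with a pseudocount of 20 CPM and 149 to 700 with 1 SPF library left out. In T cells, the 42 genes lower in DSS became 26 with clusters, 155 with a pseudocount of 1 CPM, 6 with a pseudocount of 20 CPM and 166 to 559 with 1 SPF library left out.

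The interferon-gamma response median in resident macrophages, 1.50, was 0.73 with clusters. The antimicrobial and acute-phase proteins median in resident macrophages, 2.13, was 0.76 with clusters, 2.87 with a pseudocount of 1 CPM, 1.06 with a pseudocount of 20 CPM and 1.54 with no low-count filter. The tissue macrophage and efferocytosis median in resident macrophages, -0.88, was -0.12 with clusters, -0.997 with a pseudocount of 1 CPM, -0.55 with a pseudocount of 20 CPM, -1.02 with TMM, -0.74 with no low-count filter, -0.81 with at least 2 markers, -0.75 without cluster 8 and -0.84 to -0.78 with 1 SPF library left out. The interferon-gamma response median in dendritic cells, 1.73, was 1.33 with a pseudocount of 20 CPM and 1.43 to 2.14 with 1 SPF library left out. The type I interferon response median in B cells, 1.29, was 1.09 with clusters, 1.68 with a pseudocount of 1 CPM, 0.64 with a pseudocount of 20 CPM, 1.40 with TMM and 1.22 to 1.36 with 1 SPF library left out.

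Of the 115 class and gene pairs named by rule, 31 with clusters, 25 with a pseudocount of 20 CPM, 8 with at least 2 markers, 3 with TMM and 1 under the stricter cell filter no longer passed the fold. With clusters, these were 7 of 19 in B cells, 3 of 20 in T cells, 4 of 16 in dendritic cells, 0 of 20 in monocytes, 8 of 20 in neutrophils and 9 of 20 in resident macrophages.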

Other observations

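A DSS-treated library from Nlrc4-deficient mice was left out of the comparisons above, and the genes given here were chosen after their values were seen. Il1a, encoding interleukin-1 alpha, stood in monocytes at 52.4 and 120 CPM in the SPF libraries, 75.6 CPM in wild-type DSS and 734 CPM in Nlrc4-deficient DSS. In resident macrophages Il1a stood at 61.3 and 150 CPM in the SPF libraries, 38.6 CPM in wild-type DSS and 728 CPM in Nlrc4-deficient DSS. Inhba, encoding an activin subunit, stood in resident macrophages at 40.8 and 27.8 CPM in the SPF libraries, 82.9 CPM in wild-type DSS and 419 CPM in Nlrc4-deficient DSS. Hmox1, encoding haem oxygenase 1, stood in neutrophils at 534 and 999 CPM in the SPF libraries, 356 CPM in wild-type DSS and 4274 CPM in Nlrc4-deficient DSS. Fos, an immediate early gene, stood in monocytes at 1054 and 834 CPM in the SPF libraries, 1333 CPM in wild-type DSS and 242 CPM in Nlrc4-deficient DSS. How many other genes differed as much between the DSS libraries was not counted. With 1 library of each kind, genotype, DSS course and library cannot be told apart.

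Mid1 and Gm47283 were close to 0 in the Nlrc4-deficient DSS library. In monocytes Mid1 stood at 62.9 and 86.5 CPM in the SPF libraries, 30.1 CPM in wild-type DSS and 1.12 CPM in Nlrc4-deficient DSS. In B cells Mid1 stood at 39.5 and 74.2 CPM in the SPF libraries, 26.8 CPM in wild-type DSS and 0 CPM in Nlrc4-deficient DSS. Gm47283 stood in monocytes at 253 and 407 CPM in the SPF libraries, 138 CPM in wild-type DSS and 0.337 CPM in Nlrc4-deficient DSS, and in T cells at 205 and 292 CPM in the SPF libraries, 154 CPM in wild-type DSS and 0 CPM in Nlrc4-deficient DSS. The wild-type DSS library lay below both SPF libraries in each of these 4 cases. The labels give C57BL/6 for all of these mice, and whether they were of 1 substrain or colony is not given in the sources used here and was not tested.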
